A study of Mus musculus with 4 samples.

Results

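The 10 genes described here form a chain that runs from the cytokine receptor subunit gp130 to the transcription factor STAT3 and to genes of astrocyte formation: Lif, Il6st, Lifr, Osmr, Jak1, Jak2, Stat3, Socs3, Cebpd and Gfap. They were chosen by name, and all 10 were found among the 25261 gene identifiers of the files through their GENCODE M21 symbols. RNA was sequenced from neural stem cells of adult C57BL/6 mice aged 8 weeks, cells which divide and give rise to neurons and glia. All cells had been infected with a lentivirus. In shOGT (n = 2 libraries) it carried a short hairpin RNA against mouse Ogt, and in ctrl (n = 2 libraries) a scrambled hairpin RNA. Ogt encodes the enzyme that attaches single N-acetylglucosamine sugars to proteins of the nucleus and cytoplasm. Nothing in the labels states that replicate libraries were grown as separate cultures, and p-values therefore reflect the scatter of these 4 libraries alone, possibly a technical one.

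Cytokines of the interleukin-6 family bind receptors that share gp130, the product of Il6st. Pairing of gp130 with a partner receptor activates JAK kinases bound to the receptor tails, which phosphorylate STAT3, and STAT3 then enters the nucleus and raises the transcription of its targets. In neural stem cells this route is known for promoting astrocyte fate through genes such as Gfap, and SOCS3, made from a STAT3 target gene, binds the receptor and the kinases and limits the signal. STAT3 activity is set by phosphorylation, which RNA levels do not measure.

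The values are the deposited signal per gene, which in each library is a whole multiple of 1 step, as reads divided by 1 factor per library would be. The steps imply 15697508 and 17753976 reads assigned to genes in shOGT and 16909316 and 17090949 in ctrl. A chi-square of the implied reads was 3.33 per gene between the shOGT libraries and 2.02 between the ctrl libraries. Sampling noise alone gives about 1 if the implied reads are true reads, which was not verified for ctrl. As both values were above 1, replicates were kept as separate samples. Ogt measured 3379 and 3516 in shOGT and 4112 and 4137 in ctrl, so that both shOGT values were lower (log2 fold change -0.26 ± 0.04 SE, limma adjusted p = 0.00876). Markers of neural stem cells were abundant, with Nes, the gene of nestin, at 15395 and 13956 in shOGT and 13187 and 14174 in ctrl. Of the 13 neural stem cell markers 0 were higher and 3 lower in shOGT. Among all genes tested 1.96% were called higher and 2.90% lower, and 3.41% and 5.15% at a mean signal of at least 50. The summed signal of the 13 markers was 83903 and 85079 in shOGT and 88806 and 91750 in ctrl. Fabp7, which encodes a lipid carrier of glia and progenitors, measured 20417 and 22434 in shOGT and 29543 and 30451 in ctrl (log2 fold change -0.49, limma adjusted p = 0.000971). Fold changes are differences of log2(value + 1), and for low genes this scale understates a change. A gene was called at a Benjamini-Hochberg adjusted p under 0.05 over the 21829 genes tested.

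Of the 10 STAT3 and gp130 genes 1 passed the test, Cebpd, which rose in shOGT, and none passed as lower. By the means the 10 genes ranged from 9.43% lower in shOGT (Stat3) to 57.8% higher (Lif). All 10 genes were tested, and 7 of them had an unadjusted p under 0.05, as had 4214 of the 21829. Among all genes tested 4.86% were called, 1.96% higher (427 genes) and 2.90% lower (633 genes), and with libraries rescaled to equal totals the split was 593 higher and 585 lower. With any 1 library left out, limma called 0 genes, and 2484 to 3389 had an unadjusted p under 0.05. Among the 12200 genes with a mean signal of at least 50, a level that all 10 exceed, 8.56% were called, 3.41% higher and 5.15% lower, so that 1 of 10 is close to the background. The median log2 fold change of the 10 genes was 0.05, against 0.001 over all genes tested, and the median of the 10 was 0.15 without shOGT 1 and 0.019 without shOGT 2. Both shOGT values lay above both ctrl values for 5 of the 10 (Lif, Osmr, Jak1, Cebpd and Gfap) and below them for 3 (Lifr, Jak2 and Stat3). Such separation was common, with 25.0% of all genes tested above and 24.3% below, 49.3% together. At a mean signal of at least 50 it was 58.8%, with 27.7% above and 31.1% below.

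**Figure D1:**
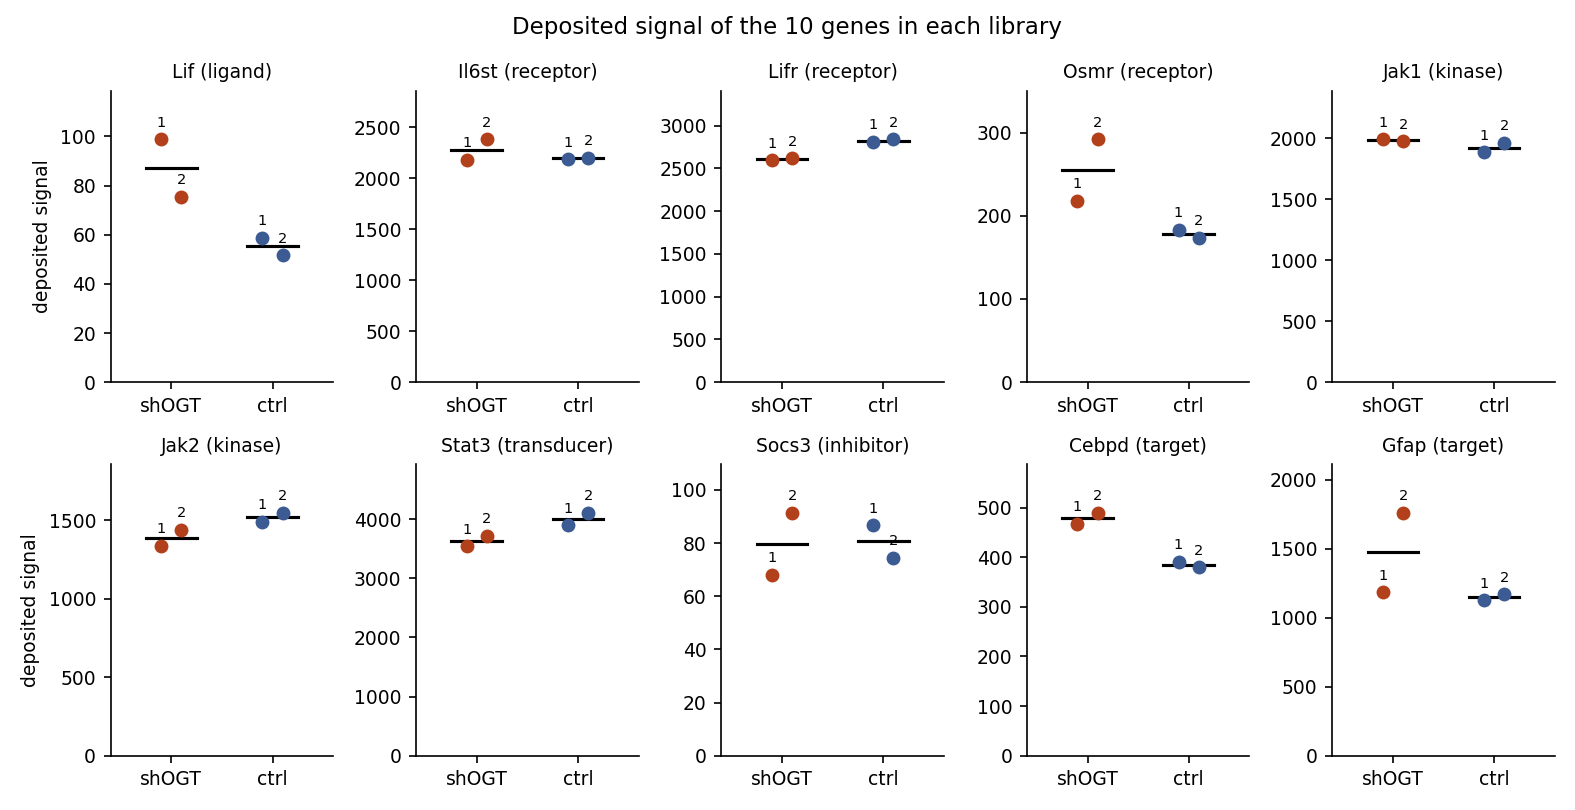
Deposited signal (vertical axes, linear and from 0) of the 10 genes in the shOGT libraries (left, red) and the ctrl libraries (right, blue). Each point is 1 library with its replicate number and each bar is the mean of 2. The shOGT points of Gfap and Osmr lie far apart, those of Lifr and Cebpd close together, and Socs3 overlaps between the groups.

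Lif encodes leukemia inhibitory factor, a cytokine that signals through gp130 and the LIF receptor. It measured 98.9 and 75.4 in shOGT, against 58.8 and 51.6 in ctrl. Both shOGT values were above both ctrl values, and shOGT 1 was the highest. The log2 fold change was 0.64 (95% interval 0.18 to 1.10), the largest point estimate of the 10 genes, and it did not pass (limma adjusted p = 0.117). Lif is a low gene here, with 93 and 80 implied reads in shOGT and 59 and 52 in ctrl. If the implied reads are true reads, which was not verified for ctrl, the counting error alone at 52 reads is 13.9%. Lif (ENSMUSG00000034394) lies on the plus strand of chromosome 11 at 4257557 to 4272514 of GRCm38.

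Il6st encodes gp130 itself, the subunit shared by the family. Its signal was 2178 and 2383 in shOGT and 2187 and 2201 in ctrl, so that the groups overlapped. The log2 fold change was 0.05 with a 95% interval of -0.06 to 0.17 (adjusted p = 0.631), and without shOGT 2 it was -0.01. Its partner Lifr, the LIF receptor, measured 2596 and 2618 in shOGT and 2807 and 2841 in ctrl. The libraries of each group lay close together, and both shOGT values were lower. For Lifr the log2 fold change was -0.12 ± 0.04 (adjusted p = 0.158).

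Osmr encodes the receptor subunit that pairs with gp130 to bind oncostatin M. It measured 218 and 292 in shOGT and 183 and 174 in ctrl. Both shOGT values were above ctrl, and shOGT 2 was further from ctrl than shOGT 1 was. The log2 fold change was 0.50 (95% interval 0.18 to 0.82, adjusted p = 0.0827), and it was 0.29 without shOGT 2 and 0.71 without shOGT 1. Osmr passed when the filter on low values was raised to 5 (adjusted p = 0.0266) or 10 (adjusted p = 0.0224). These settings leave fewer genes to test and also change the variance estimates, and which of these lowered the adjusted p was not tested. Of the 3 receptor genes Osmr was the lowest per length, at 21.1 ± 4.34 signal per kb of merged exons in shOGT and 14.7 ± 0.578 in ctrl (SD, n = 2 each). The same measure was 205 ± 13.0 in shOGT and 198 ± 0.902 in ctrl for Il6st.

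Jak1 and Jak2 encode tyrosine kinases that bind receptor tails of this family. Jak1 measured 1993 and 1978 in shOGT and 1884 and 1965 in ctrl. Its groups were apart by little, with a log2 fold change of 0.05 (95% interval -0.06 to 0.15, adjusted p = 0.651) that was 0.015 without ctrl 1 and 0.076 without ctrl 2. Jak2 measured 1337 and 1440 in shOGT and 1492 and 1549 in ctrl. Both shOGT values were lower, with a log2 fold change of -0.13 (95% interval -0.26 to -0.007, adjusted p = 0.232) that was -0.078 without shOGT 1. Exons of Jak1 share 4 bases with Raver2 on the opposite strand.

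Per length Stat3 had the highest mean of the 10 genes in both groups. It measured 381 ± 13.3 signal per kb in shOGT and 420 ± 15.6 in ctrl (SD, n = 2 each). Its signal was 3537 and 3717 in shOGT and 3899 and 4110 in ctrl. Both shOGT values were below both ctrl values. The mean was 9.43% lower in shOGT, a log2 fold change of -0.14 ± 0.04 (95% interval -0.24 to -0.04) that did not pass (adjusted p = 0.113). At a minimum value of 10 it did pass (adjusted p = 0.0461). Stat3 (ENSMUSG00000004040) lies on the minus strand of chromosome 11 at 100885098 to 100939540, and 72 of its 9527 exon bases are shared with Stat5a on the plus strand, whose signal was 41.5 and 33.9 in shOGT and 36.9 and 27.8 in ctrl.

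Socs3, the feedback inhibitor, measured 68.0 and 91.4 in shOGT and 86.8 and 74.4 in ctrl. Both ctrl values lay between the shOGT values, so that the shOGT libraries were the lowest and the highest of the 4. The log2 fold change was -0.03 with a 95% interval of -0.47 to 0.42 (adjusted p = 0.965). Socs3 had 64 to 97 implied reads, and a change smaller than that interval was not detectable. Left-out libraries turned its sign, with a log2 fold change of 0.18 without shOGT 1, 0.08 without ctrl 1 and -0.24 without shOGT 2.

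Parts of the promoter windows of Socs3 and Gfap are shown because each held a match to a sequence form that STAT proteins bind. STAT proteins bind palindromes of the form TTCNNNGAA, which read the same on both strands. The RefSeq promoter table (GRCm38.p6) holds windows of 300 bases, 250 before and 50 after the start, for 9 of the 10 genes, all but Cebpd. The palindrome was found in the windows of 2 genes, Socs3 and Gfap, and in no window of the other 7. Of all 32851 windows 8.30% held it, and of the 16755 windows of genes tested 6.86%. The Socs3 sequence is printed up to the start and the Gfap sequence to the end of its match, 250 and 257 of the 300 bases. Capitals mark the match, and both windows are on the minus strand of chromosome 11, written 5′ to 3′ along the gene.
Socs3, chr11:117969367-117969616: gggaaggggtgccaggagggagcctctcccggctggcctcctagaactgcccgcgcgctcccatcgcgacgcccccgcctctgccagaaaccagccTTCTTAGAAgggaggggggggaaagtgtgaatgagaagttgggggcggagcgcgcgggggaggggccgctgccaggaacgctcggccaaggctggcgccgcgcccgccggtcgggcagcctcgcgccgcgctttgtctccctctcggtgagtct
Gfap, chr11:102897194-102897450: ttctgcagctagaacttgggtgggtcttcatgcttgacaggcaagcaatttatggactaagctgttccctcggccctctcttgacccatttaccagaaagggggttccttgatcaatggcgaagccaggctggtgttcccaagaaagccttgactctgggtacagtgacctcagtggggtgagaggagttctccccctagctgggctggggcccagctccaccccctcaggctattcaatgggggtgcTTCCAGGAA
The Socs3 match begins 154 bases before the annotated start. The Gfap match begins 2 bases before it and crosses it. A match describes the letters and not a bound site. Neither gene was called (limma adjusted p = 0.965 for Socs3 and 0.234 for Gfap). Socs3 overlapped between the groups, and the groups of Gfap were apart by little, with shOGT 1 at 1185 and ctrl 2 at 1169. Whether these 2 genes differed from each other in their change was not tested.

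Gfap encodes the intermediate filament protein of astrocytes and of adult neural stem cells. It measured 1185 and 1762 in shOGT and 1125 and 1169 in ctrl. Library shOGT 2 stood far above the others, and shOGT 1 lay close to ctrl 2. The means were 1474 ± 408 in shOGT and 1147 ± 30.8 in ctrl (SD, n = 2 each). With a log2 fold change of 0.33 (95% interval 0.02 to 0.65) Gfap did not pass (adjusted p = 0.234). The 2 shOGT libraries differed from each other by 0.57 on the log2 scale, more than the groups did, and without shOGT 2 the log2 fold change was 0.05.

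Cebpd encodes C/EBP delta, a transcription factor that gp130 cytokines induce. It measured 468 and 490 in shOGT, against 391 and 380 in ctrl. The libraries of each group lay close together and the groups were well apart. The mean rose by 24.3%, to 479 ± 15.8 in shOGT, against 385 ± 7.78 in ctrl (SD, n = 2 each). The log2 fold change was 0.31 ± 0.08 (limma adjusted p = 0.0499). The size hardly moved when any library was left out, with 0.28 to 0.35, but the call lay at the threshold. It was lost at a pseudocount of 0.5 (adjusted p = 0.0566) and with any 1 library left out, and over all alternatives the adjusted p ranged from 0.00782 to 0.379. Cebpd (ENSMUSG00000071637) lies on chromosome 16 at 15887286 to 15891031 on the plus strand, and 562 of its 3746 exon bases are shared with Spidr on the minus strand. Spidr measured 741 and 696 in shOGT and 671 and 709 in ctrl, a log2 fold change of 0.06 (adjusted p = 0.7), and whether counting used strand is not given in the sources used here.

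**Figure D2:**
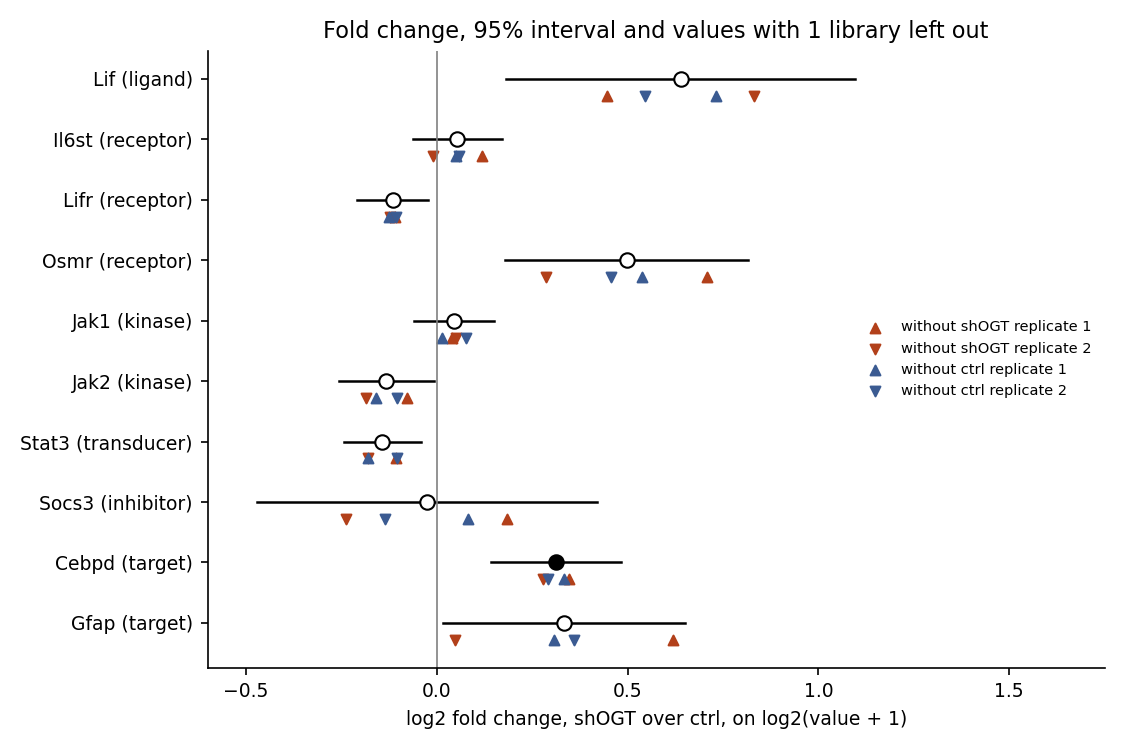
Log2 fold change of shOGT over ctrl (horizontal axis) for the 10 genes, with 95% intervals from limma (lines) and the called gene filled. Triangles below each line give the value with 1 library left out, red for a shOGT library and blue for a ctrl library. For Gfap the red triangles lie at 0.62 and 0.05, while those of Cebpd lie at 0.35 and 0.28.

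Ordered by signal per kb in ctrl, the 10 genes ran Stat3, Jak2, Gfap, Jak1, Lifr, Il6st, Cebpd, Socs3, Osmr and Lif. Gfap, Jak1 and Lifr were neighbours within their spread, at 272 ± 7.31, 266 ± 7.95 and 262 ± 2.21 signal per kb in ctrl. In shOGT Gfap stood second by the means, at 349 ± 96.6. That spread overlaps the 276 ± 14.5 of Jak2 and the 381 ± 13.3 of Stat3. In library shOGT 2 Gfap was above Stat3, at 418 against 390 signal per kb. A wide gap separated the first 7 genes from the last 3, with Cebpd at 128 ± 4.22 in shOGT and 103 ± 2.08 in ctrl, and Socs3 at 27.6 ± 5.72 in shOGT and 27.9 ± 3.02 in ctrl. Osmr and Lif stood last, and in shOGT they did not differ beyond their spread.

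**Figure D3:**
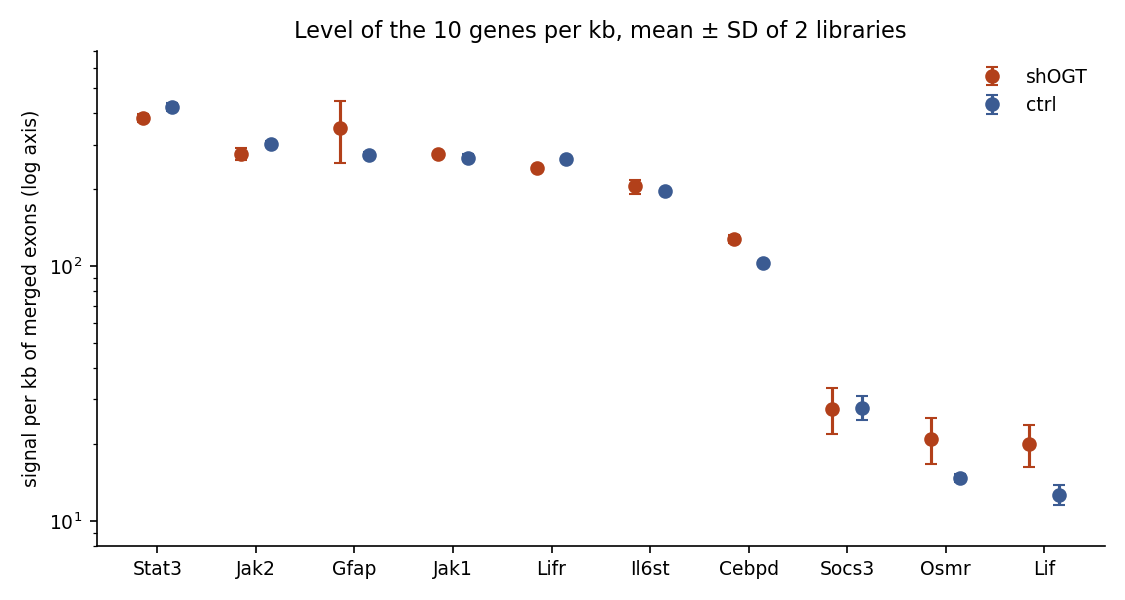
Signal per kb of merged exons (vertical axis, log scale) for the 10 genes in order of their level in ctrl, as mean ± SD of 2 libraries in shOGT (red, left) and ctrl (blue, right). By the means Stat3 stands highest and Lif lowest in both groups. In shOGT the spreads of Stat3 and Gfap overlap, as do those of Lif and Osmr.

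The other genes of the route were taken from 7 lists chosen by textbook role, 90 genes in all that were tested. Of these 3 were higher and 4 lower in shOGT, 7 of 90 called (0 with any 1 library left out). This lies between the 4.86% of all genes tested and the 8.56% of those with a mean signal of at least 50. Their median log2 fold change was 0.03. Of 7 other gp130 ligands 0 were called, with 1 at an unadjusted p under 0.05, Clcf1, and a median of 0.05 that ranged from -0.20 to 0.52 with 1 library left out. Clcf1 encodes a cytokine that acts through the CNTF receptor together with gp130 and the LIF receptor. It measured 101 and 138 in shOGT and 76.8 and 81.3 in ctrl (log2 fold change 0.57 ± 0.18, adjusted p = 0.119), and at a minimum value of 10 it passed (adjusted p = 0.0496). Without shOGT 2 its log2 fold change was 0.35. Ctf1, cardiotrophin 1, measured 19.1 and 23.6 in shOGT and 24.9 and 32.7 in ctrl (adjusted p = 0.525). The ligand genes Il6, Osm and Il27 were not analysed here.

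Of 5 further receptor genes of the family 0 were called, and 0 had an unadjusted p under 0.05. Their median log2 fold change was 0.33, and leaving out ctrl 1 gave 0.042, ctrl 2 -0.042, shOGT 1 0.46 and shOGT 2 0.053. At a minimum value of 5 only 4 of these receptor genes remained, and the median was 0.14. Cntfr, the CNTF receptor subunit, measured 476 and 413 in shOGT and 457 and 461 in ctrl, and Il11ra1, the interleukin-11 receptor, 408 and 415 in shOGT and 498 and 400 in ctrl. Both overlapped between the groups. Il6ra, the interleukin-6 receptor, measured 43.6 and 41.5 in shOGT and 28.9 and 30.8 in ctrl (log2 fold change 0.50 ± 0.25, adjusted p = 0.31). Of 7 other JAK and STAT genes 0 were called and 0 had an unadjusted p under 0.05, and the median was 0.10 (0.023 without ctrl 2). The smallest p was that of Jak3, at 216 and 284 in shOGT and 209 and 200 in ctrl (adjusted p = 0.311, log2 fold change 0.27, and 0.075 without shOGT 2), followed by Stat5b, at 474 and 448 in shOGT and 480 and 518 in ctrl (adjusted p = 0.475).

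Of 12 adaptors and STAT3 coactivators, 1 rose and 0 fell, with a median of -0.004. The gene that rose was Gab1, a docking protein that links gp130 to the ERK and PI3K routes. It measured 1663 and 1627 in shOGT and 1387 and 1448 in ctrl (log2 fold change 0.21 ± 0.05, adjusted p = 0.0425). Of its exon bases 5.23% are shared with an antisense gene. Of 19 inhibitors of JAK-STAT signalling, 0 rose and 1 fell, with a median of -0.06 (-0.11 without ctrl 2). The gene that fell was Socs4, a relative of Socs3, which measured 1056 and 1073 in shOGT and 1265 and 1315 in ctrl (log2 fold change -0.28 ± 0.05, adjusted p = 0.0202). Both shOGT values lay below both ctrl values in 11 of the 19 inhibitors and above them in 2. The shares over all genes tested were 24.3% below and 25.0% above, and at a mean signal of at least 50 they were 31.1% and 27.7%.

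Of 25 STAT3 target genes besides the members, 2 rose and 0 fell, and the median was 0.11, with 0.26 without shOGT 1 and 0.074 without shOGT 2. Klf4, a transcription factor of stem cells, measured 319 and 271 in shOGT and 209 and 188 in ctrl (log2 fold change 0.56 ± 0.12, adjusted p = 0.0264). Mcl1, an inhibitor of apoptosis, measured 4284 and 4644 in shOGT and 3920 and 3853 in ctrl (log2 fold change 0.20 ± 0.05, adjusted p = 0.0422), and at a pseudocount of 0.5 it was not called (adjusted p = 0.0515). Both shOGT values lay above both ctrl values in 11 of the 25 targets and below them in 3. Over all genes tested it was 25.0% above and 24.3% below, and at a mean signal of at least 50 it was 27.7% and 31.1%.

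Among all genes tested 1.96% were called higher and 2.90% lower, and 3.41% and 5.15% at a mean signal of at least 50. Of 15 regulators of the switch from neuron to glia formation, 0 rose and 3 fell, with a median of 0.008. Among those that fell, Zbtb20, a zinc finger factor of astrocyte formation, measured 2954 and 2984 in shOGT and 3645 and 3524 in ctrl (log2 fold change -0.27 ± 0.04, adjusted p = 0.00758). Id1, an inhibitor of differentiation factors that BMP induces, measured 293 and 436 in shOGT and 564 and 550 in ctrl (log2 fold change -0.64 ± 0.15, adjusted p = 0.0442), and without shOGT 1 its log2 fold change was -0.35. At a pseudocount of 0.5 Id1 was not called (adjusted p = 0.0586).

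**Figure D4:**
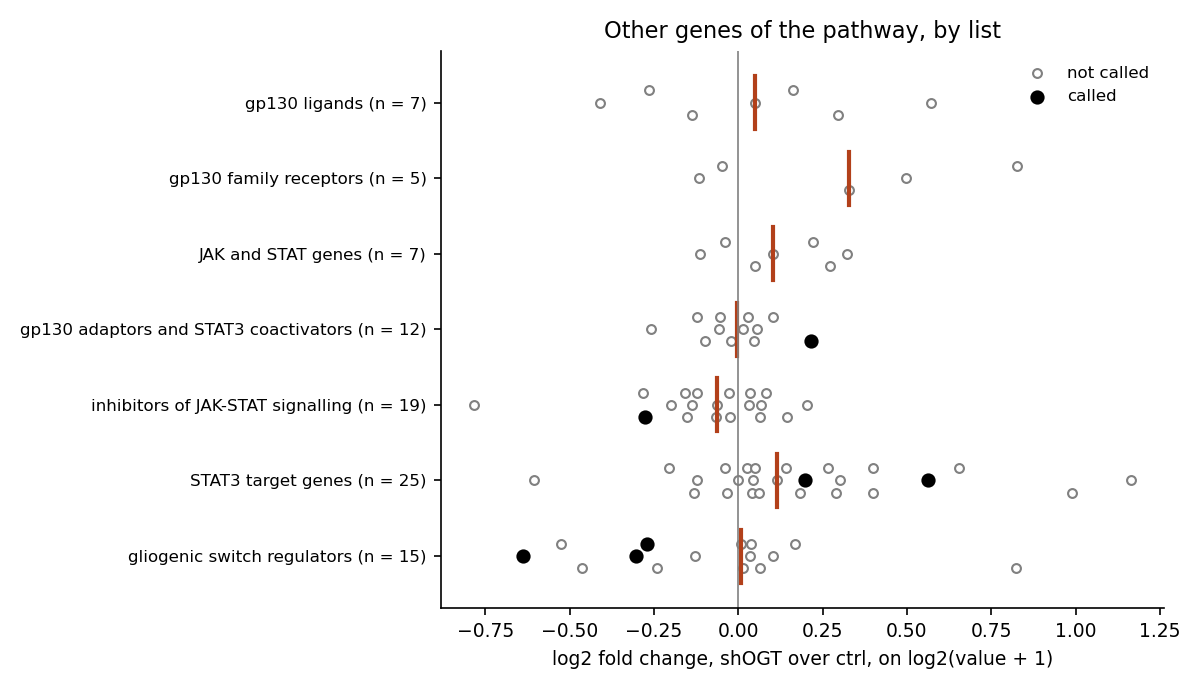
Log2 fold change of shOGT over ctrl (horizontal axis) for the tested genes of the 7 lists, 1 point per gene, filled where called, with the median of each list as a red bar. The 3 filled points above 0 are Gab1, Mcl1 and Klf4, and the 4 below include Socs4, Zbtb20 and Id1.

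Likeness of profile was measured as the root mean square distance between log2(value + 1) values centred over the 4 libraries, among the members and list genes with a mean signal of at least 100. Over so few libraries many genes are alike by this measure. Nearest to Stat3 were Jak2 (0.016) and Ncoa1 (0.026), a coactivator. Nearest to Cebpd were Fgf2 (0.029) and Pim1 (0.049), and Socs3 was nearest to Timp1 (0.072) and Fos (0.097). Gfap was nearest to Jak3 (0.082) and Osmr (0.11), in each of which shOGT 2 was the highest library.

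Markers of other cell types were read beside these values. In bulk RNA fewer cells of a type and less RNA per cell cannot be told apart. The shares of all genes tested that were called were 1.96% higher and 2.90% lower, and 3.41% and 5.15% at a mean signal of at least 50. Of 16 astrocyte markers other than Gfap 1 was higher and 3 were lower in shOGT. Their summed signal was 137310 and 142263 in shOGT and 141997 and 141562 in ctrl. The genes called were Glul (higher) and Slc1a2, Aldh1l1 and Gja1 (lower), named here after their values were seen. Glul, glutamine synthetase, measured 6662 and 6330 in shOGT and 4786 and 4882 in ctrl, and Slc1a2, a glutamate transporter, measured 2271 and 2210 in shOGT and 3552 and 3367 in ctrl. Of the 16 markers 8 had a positive and 8 a negative log2 fold change. Microglia are a source of gp130 ligands in brain, and 5 of the 12 microglia markers were tested, with 0 called and a summed signal of 319 and 346 in shOGT and 369 and 361 in ctrl. P2ry12 measured 5.32 and 6.60 in shOGT and 4.99 and 4.96 in ctrl, and Csf1r, C1qa and Tmem119 were at or below 2.99 in every library. The summed signal of the 6 endothelial markers tested was 128 and 123 in shOGT and 93.7 and 126 in ctrl, and that of the 7 mural and fibroblast markers was 84.0 and 80.1 in shOGT and 81.8 and 126 in ctrl, with 0 called in either list. Of 9 oligodendrocyte lineage markers 2 were lower, of 11 neuron markers 1 was higher, and of 5 ependymal markers 0 were called. Summed signals of the first 2 of these lists were high. Oligodendrocyte lineage markers summed to 42486 and 41928 in shOGT and 41432 and 42141 in ctrl, with Olig1 alone at 37848, 37755, 36350 and 37152. Neuron markers summed to 18807 and 18560 in shOGT and 16600 and 17189 in ctrl, with Map2 alone at 17564, 17269, 15469 and 15954. The part of other cell types in the values of the 10 genes was not tested.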

How the data were processed

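The deposited files hold 1 signal value per gene and library. The submitters' processing notes name the build mm10; aligner, counter, annotation, strand setting and normalization: not given in the sources used here. All deposited signal values were whole multiples of 1 step per library (tolerance 0.01 of a step). Symbols, positions and merged exon lengths came from GENCODE M21 on GRCm38, which matched 25242 identifiers and missed 19. Values were fitted as log2(value + 1) with limma 3.58.1 in R 4.3.3, with a variance trend, for the 21829 genes that reached 1 in 2 or more libraries, and Benjamini-Hochberg adjustment over all of them. With 2 libraries a group, the smallest p of an exact permutation test is 0.333. The fit was tested on simulated data in which all genes and both groups shared the same scatter setting, unlike the libraries here. The members, lists and tests were chosen with earlier results of these data known. Text names Ogt, the 10 members, up to 4 called genes of each pathway list or else the 2 of smallest p, the 2 most abundant ligands and receptors, the nearest profiles and up to 3 markers of each list. Some genes that this rule names are not reported here. Other genes named were chosen after their values were seen.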

Additional observations from a re-analysis of the deposited data

How the results depend on the processing

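Of the 10 genes, Socs3 and Il6st turned direction under some of the 13 alternatives and the other 8 did not. The filter, variance trend and replicate block settings do not alter a fold change. Leaving out 1 library cannot reverse groups that do not overlap, as in those 8 genes. Their kept direction was thus largely fixed in advance. Without shOGT 2 the log2 fold change of Il6st was -0.010 and without shOGT 1 it was 0.12. With 1 library left out Socs3 ranged from -0.24 to 0.18, Il11ra1 from -0.27 to 0.042, Cntfr from -0.15 to 0.053, Timp1 from -0.28 to 0.33 and Fos from -0.19 to 0.11. The number of the 10 genes called was 0 at a pseudocount of 0.5, without a filter, with quantile normalization and without the variance trend, 2 at a minimum value of 5 and 3 at 10. Over all genes the call count was 0 without a filter, with quantile normalization and without the trend (4302, 3998 and 2763 genes at an unadjusted p under 0.05), 1819 at a minimum of 5 and 1955 at 10. The 7 pathway lists gave 0, 0 and 0 calls under the same 3 settings, 5 at a pseudocount of 0.5 and 12 at a minimum of 10. Leaving out any 1 library gave 0 calls among the 10 genes, in the 7 lists and over all genes, against 1, 7 and 1060, with 2484 to 3389 genes at an unadjusted p under 0.05; the lone library is assumed to vary like the other group. With 1 library left out the log2 fold change of Ogt ranged from -0.29 to -0.23. Ogt was not called without a filter (-0.26, adjusted p = 0.115), with quantile normalization (-0.25, 0.0936) or without the trend (-0.26, 0.349). The cause of these differences was not tested.

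Replicate numbers are shared between the groups, but nothing says that they pair the libraries. Over 11080 genes the replicate differences of shOGT and ctrl had a correlation of 0.02 across genes, which are not independent replicates. A fit with the replicate block called 2302 genes, 13 in the 7 lists and 5 of the 10 genes: Cebpd, Lif, Osmr, Gfap (adjusted p = 2.2e-06) and Stat3. In that fit each gene's variance came from the trend alone, so that the distance between the shOGT libraries of Gfap did not enter its error. The planned count tests were not run, because the implied reads of the ctrl files could not be verified as reads. Socs3 and Lif had under 100 implied reads in every library, and the part of counting error in their scatter was not tested.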
